A study of Bos taurus with 46 samples.

Results

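S100A8, S100A9 and S100A12, the S100 calgranulins, were followed in circulating leukocytes of pregnant heifers on D55 and D105 of gestation. These genes were chosen by symbol, and they are 3 of the 30675 genes of the count table on NCBI RefSeq genes. All 3 were tested in every comparison, since each had at least 363 reads in every library. Blood came from 23 heifers of Angus crossbred stock, each sampled on both days, which gave 46 libraries. The AI group (n = 8) had conceived by artificial insemination. The other heifers had received in vitro produced (IVP) blastocysts, made from *B. t. taurus* oocytes and semen of a single Brahman bull and cultured with serum. They were divided by fetal weight at collection into IVP-Normal (n = 6) and IVP-LOS (n = 9), where LOS, large offspring syndrome, stands for a fetus as heavy as or heavier than an upper percentile of AI fetuses of its sex. Groups were therefore fixed by fetuses collected on D105, also for the D55 blood. Per the study, some IVP heifers carried more than 1 fetus, and fetus number was not used here.

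Calgranulins are small calcium-binding proteins of the S100 family that fill the cytosol of neutrophils and are also abundant in monocytes. S100A8 and S100A9 pair into calprotectin, which binds zinc and manganese and so withholds them from microbes, and S100A12 is a related zinc-binding protein. Released from activated or dying cells, they act as alarmins, that is, danger signals that reach TLR4 and the receptor AGER (RAGE) on other cells. In cattle, calgranulins in blood and milk are known as signs of inflammation. On assembly ARS-UCD2.0, as annotated by RefSeq, the genes lie next to each other on chromosome 3 in the order S100A8, S100A12, S100A9, between LOC786371 and LOC132344836, and 0 other genes overlap any of them. The counts were made on another assembly, ARS-UCD1.2.

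The leukocyte marker PTPRC (CD45) was between 1800 and 2428 CPM in all 46 libraries, where CPM are the reads of a gene per M (mega) reads on genes after TMM scaling. Between 18.7 M and 24.5 M reads per library fell on genes, and the calgranulins took between 0.03% and 0.92% of them. The D105 libraries of heifers 604 and 664 were the shallowest, with 18.7 M and 19.6 M reads on genes. In these, 32.4% and 30.4% of all counted reads lay on no gene, against 20.2% to 25.9% in the other D105 libraries. Per the study, 604 and 664 carried the largest fetuses. The D105 libraries of AI and IVP-LOS heifers form a set called BACKUP in the labels and all other libraries a set called New. The study's texts name the seasons of blood collection differently and the labels give no dates, so season was not used here. In the AI and IVP-LOS groups, day and library set cannot be told apart. Comparisons among groups on D55 and of AI with IVP-LOS on D105 lie within 1 set.

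In AI heifers, all 3 calgranulins were higher on D105 than on D55. S100A9, the partner of S100A8 in calprotectin, ranged on D55 from 93.3 to 250.7 CPM with a median of 157 CPM, and on D105 from 261.6 to 1084 CPM with a median of 353 CPM. The days did not overlap, and S100A9 was higher on D105 in 8 of 8 heifers. The smallest ratio of D105 to D55 was 1.205, in heifer 647, and the largest was 11.4, in heifer 590. S100A8 ranged from 54.6 to 140.1 CPM (median 104.4 CPM) on D55 and from 118.7 to 452 CPM (median 178 CPM) on D105. It was higher on D105 in 7 of 8 heifers, and in heifer 647 the ratio was 0.973. S100A12, the most heavily read of the 3 genes, ranged from 419.8 to 1039 CPM (median 679.5 CPM) on D55 and from 733 to 2685 CPM (median 1287 CPM) on D105. It was also higher on D105 in 7 of 8 heifers, with a ratio of 0.998 in heifer 606. Heifer 590 was among the lower heifers of the group for each gene on D55 and the highest of the group for each gene on D105.

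On the log2 scale, the fitted difference of D105 minus D55 in AI heifers was 1.57 ± 0.323 (SE) for S100A9, 1.10 ± 0.287 for S100A8 and 0.99 ± 0.265 for S100A12. The adjusted p of edgeR's quasi-likelihood test was 0.00391, 0.0194 and 0.0224, respectively. All 3 calgranulins were called higher, beside 7.21% of the 15248 genes tested (1100 genes). With the heifer as a block, that is, with each heifer compared with itself, 10.2% of the genes were called higher and all 3 calgranulins remained called. The blocked log2 differences were 1.47 for S100A9 (adjusted p = 0.00319), 0.99 for S100A8 (0.0310) and 0.94 for S100A12 (0.0205). Over the heifers' own log2 ratios, an exact sign-flip test gave means of 1.49 for S100A9 (p = 0.00781, the smallest possible with 8 heifers), 1.01 for S100A8 (p = 0.0156) and 0.95 for S100A12 (p = 0.0156), each with an adjusted p of 0.0469 over 9 tests. Without heifer 590, the differences were 1.195, 0.76 and 0.71, and S100A9 alone was called (adjusted p = 0.0135, against 0.0668 for S100A8 and 0.0863 for S100A12), where 5.84% of genes were called higher. S100A12 also missed the threshold without heifer 517 (adjusted p = 0.0555) and without heifer 546 (0.0599). When all 46 libraries shared 1 estimate of the spread, the differences were 1.57, 1.10 and 0.99 and 0 of the 3 were called (adjusted p = 0.0977, 0.233 and 0.206), where 5.3% of 16487 genes were called higher.

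In IVP-Normal heifers, whose libraries of both days belong to the set New, the calgranulins lay higher on D105 by similar factors. S100A9 ranged from 63.2 to 171 CPM (median 110.9 CPM) on D55 and from 165 to 661 CPM (median 265 CPM) on D105. The days overlapped narrowly, and S100A9 was higher on D105 in 6 of 6 heifers, with ratios between 1.32 in heifer 560 and 6.45 in heifer 628. S100A8 ranged from 38.1 to 97.1 CPM (median 65.1 CPM) on D55 and from 67.2 to 326 CPM (median 116.03 CPM) on D105. For S100A12 the ranges were 251.9 to 720.6 CPM (median 547 CPM) and 563 to 2427 CPM (median 928 CPM). S100A8 and S100A12 were higher on D105 in 5 of 6 heifers, the exception being heifer 560 with ratios of 0.949 and 0.875. Heifer 628 was the highest of the group on D105 for each gene.

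The fitted log2 difference in IVP-Normal heifers was 1.46 ± 0.333 (SE) for S100A9, 1.14 ± 0.349 for S100A8 and 1.09 ± 0.354 for S100A12. S100A9 was called (adjusted p = 0.0325) and the other 2 were not (0.132 and 0.160), where 2.27% of 15248 genes were called higher. With the heifer as a block, 4.49% of genes were called higher and all 3 calgranulins were called, with log2 differences of 1.37 (adjusted p = 0.00856), 1.002 (0.0341) and 0.98 (0.0441) for S100A9, S100A8 and S100A12. The call of S100A9 without the block was lost when any of 5 heifers was left out (560, 628, 633, 669 or 688), with adjusted p between 0.0540 and 0.146, and kept without heifer 519 (0.0199). Without heifer 628 its log2 difference was 1.12. The exact sign-flip test over 6 heifers, which cannot go below 0.0312, gave that p for S100A9 (mean 1.37, adjusted 0.0703) and 0.0625 for S100A8 and S100A12 (means 0.997 and 0.981, adjusted 0.0938).

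IVP-LOS heifers did not share a direction. S100A9 was higher on D105 in 5 of 9 heifers and lower in 4, S100A8 likewise in 5 and 4, and S100A12 was higher in 4 and lower in 5. S100A9 ranged from 78.8 to 275 CPM (median 162 CPM) on D55 and from 24.3 to 3155 CPM (median 188 CPM) on D105. S100A8 ranged from 34.3 to 159.5 CPM (median 84.2 CPM) on D55 and from 20.7 to 1143 CPM (median 89.4 CPM) on D105. S100A12 ranged from 319 to 993 CPM (median 653 CPM) on D55 and from 225 to 6279 CPM (median 671 CPM) on D105. The D105 range of each gene extended beyond the D55 range at both ends, while the medians differed less than in the other groups.

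**Figure D1:**
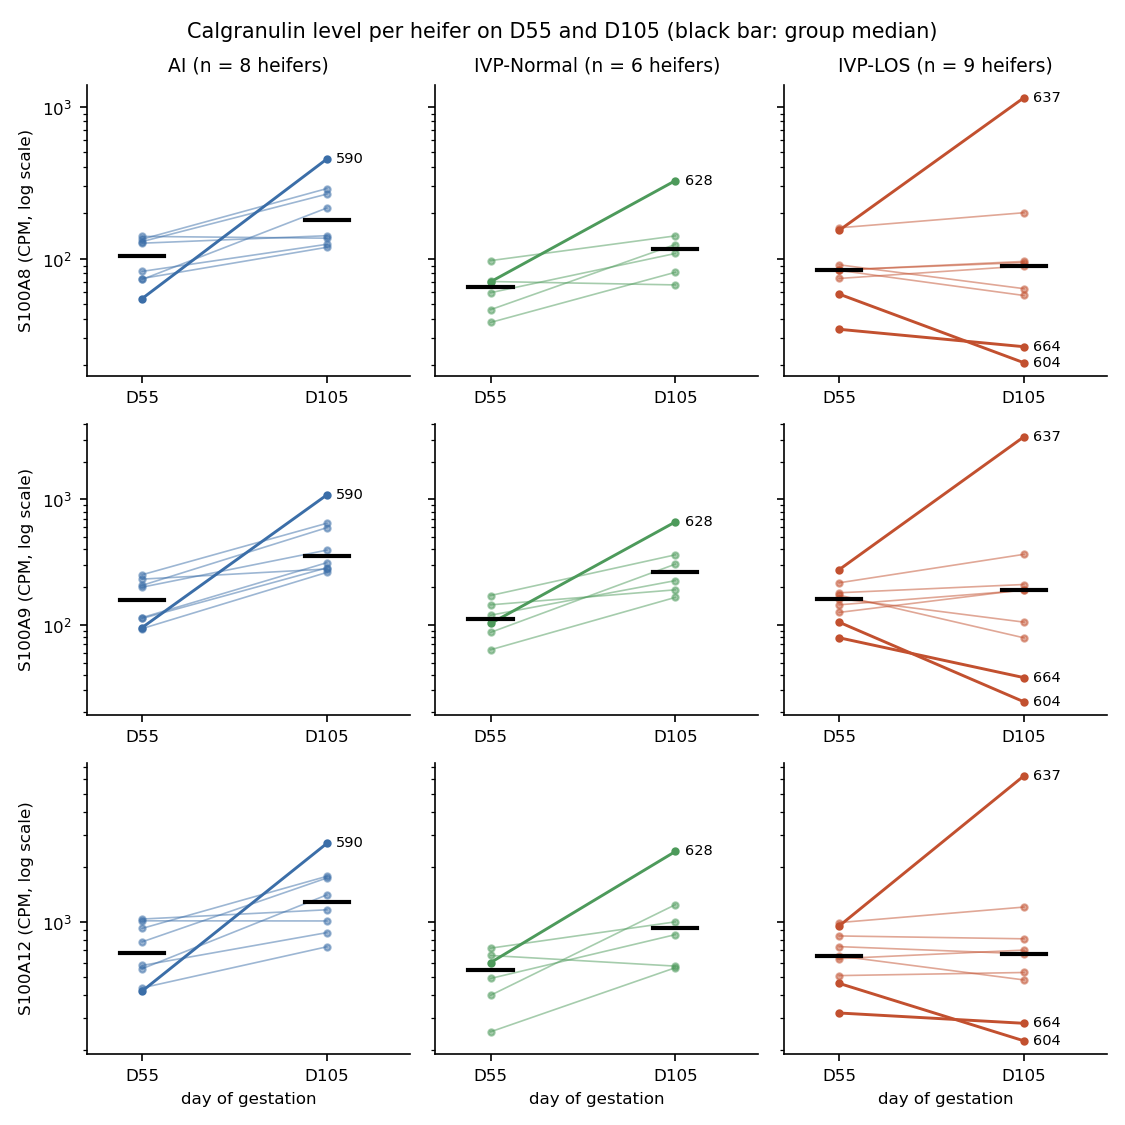
Level of each calgranulin in CPM (vertical, log scale) on D55 and D105 for the 3 groups, with a line for each heifer and a black bar at the group median. Lines rise in most AI and IVP-Normal heifers, while in IVP-LOS heifer 637 rises to 3155 CPM of S100A9 and heifers 604 and 664 end at 24.3 and 37.9 CPM.

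The upper end was heifer 637, whose D105 library held 1143 CPM of S100A8, 3155 CPM of S100A9 and 6279 CPM of S100A12. These were 7.45, 11.5 and 6.60 times its own D55 levels, and 5.70, 8.65 and 5.20 times the next highest IVP-LOS heifer. It contributed 63.8% of the summed D105 CPM of S100A8 in the 9 IVP-LOS heifers, 72.5% of S100A9 and 56.1% of S100A12. On D55 the same heifer was already high, with the highest S100A9 level of all 23 heifers (275 CPM) and rank 22 from the lowest for S100A8.

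The lower end was formed by heifers 604 and 664, which ranked first and second from the lowest of 23 on D105 for each of the 3 genes. In 604, S100A9 went from 104.9 CPM on D55 to 24.3 CPM on D105, S100A8 from 58.5 to 20.7 CPM and S100A12 from 463 to 225 CPM. In 664, the levels were 78.8 and 37.9 CPM of S100A9, 34.3 and 26.4 CPM of S100A8, and 319 and 280.3 CPM of S100A12. Heifer 664 was also low on D55, with the lowest S100A8 and the second lowest S100A9 and S100A12 level of 23. The ratio of D105 to D55 was the lowest of 23 in 604 for all 3 genes (0.232 for S100A9, 0.354 for S100A8 and 0.486 for S100A12). Heifers 557 and 512, with S100A9 at 0.457 and 0.649 times its D55 level, were the other IVP-LOS heifers in which all 3 genes were lower on D105. The part of the high share of reads on no gene in the D105 levels of 604 and 664 was not tested.

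The fitted log2 difference in IVP-LOS heifers was 1.599 ± 0.744 (SE) for S100A9, 1.14 ± 0.641 for S100A8 and 0.90 ± 0.532 for S100A12. None of the 3 was called (adjusted p = 0.383, 0.491 and 0.523), where 0.198% of 15163 genes were called higher. These differences compare group means and rest on heifer 637. Without it they were 0.03 ± 0.418, -0.03 ± 0.383 and -0.05 ± 0.299, with 0 of the 3 called and 0.138% of genes called higher. With the heifer as a block and 637 kept, they were 0.00 ± 0.450, 0.06 ± 0.336 and 0.11 ± 0.290, again with 0 called beside 0.778% of genes called higher. The exact sign-flip test gave means of 0.07, 0.11 and 0.15 (p = 0.906, 0.848 and 0.836). Mean levels show the same. S100A9 went from 162 ± 59.2 CPM (SD, n = 9) to 484 ± 1007 CPM, and without 637 from 148 ± 44.1 to 149.9 ± 112.2 CPM (n = 8).

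**Figure D2:**
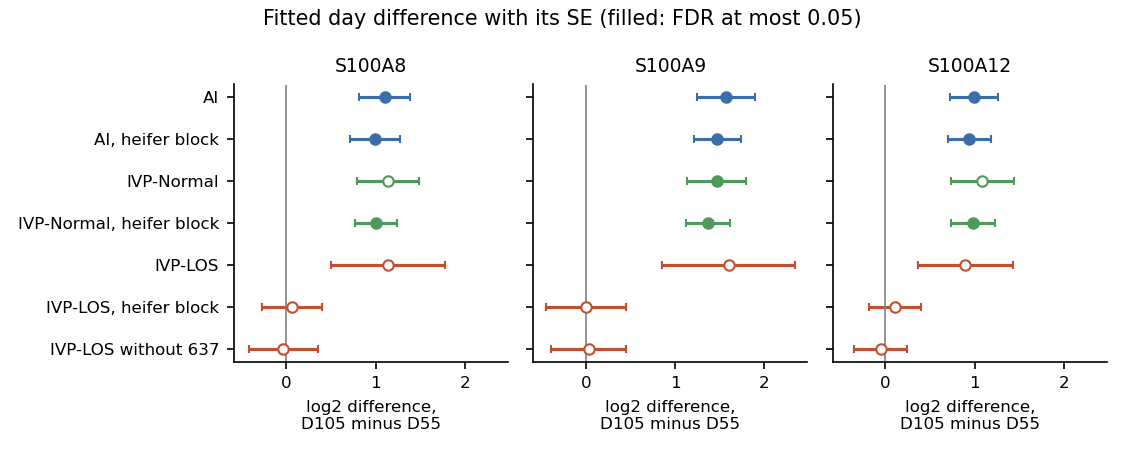
Fitted log2 difference of D105 minus D55 (horizontal) with its SE for each calgranulin, by group and by fit. Filled points have an adjusted p of at most 0.05. AI and IVP-Normal points lie near 1 or above, and the IVP-LOS points move to about 0 with the heifer as a block or without heifer 637.

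Whether the day difference itself differed between groups was tested with an interaction of group and day over all 46 libraries. For IVP-LOS minus AI it was 0.01 ± 0.775 (SE) for S100A9, 0.02 ± 0.690 for S100A8 and -0.11 ± 0.597 for S100A12, and for IVP-Normal minus AI it was -0.09, 0.05 and 0.11. For IVP-LOS minus IVP-Normal it was 0.10, -0.03 and -0.22. All adjusted p were at least 0.985, and 0% of 16487 genes were called in each of these comparisons by edgeR's quasi-likelihood test. At an unadjusted p under 0.05 there were between 201 and 808 genes, fewer than the share of 0.05 that lies there with no difference. DESeq2 called 1 gene in the comparison of IVP-LOS with AI and 0 in the others.

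This difference between IVP-LOS and AI depended on heifer 637 and on the block. With the heifer as a block it was -1.47 ± 0.545 for S100A9, -0.93 ± 0.459 for S100A8 and -0.84 ± 0.407 for S100A12 (adjusted p = 0.464, 0.473 and 0.473; 0% of genes called). With the block and without 637 it was -1.80 ± 0.428, -1.22 ± 0.369 and -1.10 ± 0.320 (adjusted p = 0.101, 0.140 and 0.133; 0% of 16462 genes called). An exact permutation test over heifers of each gene's own log2 ratio gave a difference of -1.42 for S100A9 (two-sided p = 0.0443), -0.90 for S100A8 (p = 0.114) and -0.80 for S100A12 (p = 0.110), all with an adjusted p of 0.210 over 9 tests. Without heifer 637 the differences of these ratios were -1.85, -1.25 and -1.12, with S100A9 lower on D105 in 4 of 8 IVP-LOS heifers and in 0 of 8 AI heifers. Without 604, 637 and 664 they were -1.45, -1.03 and -0.97. Heifer 637 was left out because its D105 library stands apart in these same genes. Values without it therefore describe the remaining heifers, and the adjusted p printed with them are not valid tests. AI and IVP-LOS libraries share the sets New on D55 and BACKUP on D105.

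Compared on the same day, the groups did not differ past the threshold. On D55 the mean level of S100A9 was 163 ± 65.5 CPM (SD, n = 8) in AI, 114.6 ± 39.1 CPM (n = 6) in IVP-Normal and 162 ± 59.2 CPM (n = 9) in IVP-LOS. S100A8 stood at 101.8 ± 34.0, 63.7 ± 20.9 and 91.5 ± 40.8 CPM, and S100A12 at 719 ± 254, 520.3 ± 175 and 677 ± 226 CPM, in the same order. IVP-Normal heifers had the lowest mean of each gene, with log2 differences from AI of -0.51 ± 0.273 for S100A9, -0.68 ± 0.242 for S100A8 and -0.47 ± 0.257 for S100A12 (adjusted p = 0.528, 0.493 and 0.535; 0% of 15350 genes called). IVP-LOS differed from AI by -0.00 ± 0.253, -0.15 ± 0.263 and -0.08 ± 0.232 (0% of 15236 genes called). From IVP-Normal it differed by 0.52 ± 0.259, 0.54 ± 0.291 and 0.40 ± 0.256 (adjusted p = 0.839, 0.839 and 0.841; 0% of 15452 genes called).

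On D105 the mean of S100A9 was 482 ± 285 CPM in AI, 318 ± 183 CPM in IVP-Normal and 484 ± 1007 CPM in IVP-LOS. The log2 difference between IVP-LOS and AI was -0.00 ± 0.778 for S100A9, -0.14 ± 0.664 for S100A8 and -0.20 ± 0.558 for S100A12 (adjusted p = 0.999, 0.960 and 0.927; 0% of 15283 genes called). Without heifer 637 it was -1.67 ± 0.475, -1.41 ± 0.407 and -1.20 ± 0.323 (adjusted p = 0.115, 0.118 and 0.103), with 0 of the 3 called beside 0.0657% of 15232 genes. Without 604 and 664 it was 0.35, 0.19 and 0.10. Heifer 637 was left out for its levels of these same genes, so the adjusted p without it are not valid tests. IVP-Normal differed from AI by -0.60, -0.62 and -0.35 (0% of 15437 genes called), and IVP-LOS from IVP-Normal by 0.60, 0.49 and 0.16 (0% of 15484 genes called). In these last comparisons group and library set cannot be told apart. Across the 6 same-day comparisons, edgeR's quasi-likelihood test called 0 genes, DESeq2 between 1 and 43, and edgeR's likelihood ratio test between 1 and 11. None of these 3 tests called a calgranulin. The lowest adjusted p was 0.102, for S100A12 in IVP-LOS against AI on D105 by DESeq2. By the quasi-likelihood test, between 501 and 1522 genes had an unadjusted p under 0.05. With no difference, a share of 0.05 of the genes tested would have one, and 501 lies below that share.

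Ordered by median, S100A9 was highest in AI on D105, followed by IVP-Normal on D105, IVP-LOS on D105, IVP-LOS on D55, AI on D55 and IVP-Normal on D55. Each pair of neighbours in this order was compared above, and in none did the difference pass the threshold. For S100A8 and S100A12 the AI group on D105 was likewise highest and IVP-Normal on D55 lowest, and AI on D55 stood above IVP-LOS on D105 (104.4 against 89.4 CPM of S100A8, and 679.5 against 671 CPM of S100A12).

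The 3 genes moved together from heifer to heifer. On D55 Pearson's r of log2 CPM over 23 heifers was 0.930 for S100A8 with S100A9, 0.920 for S100A8 with S100A12 and 0.935 for S100A9 with S100A12, and Spearman's rho was 0.934, 0.882 and 0.921. On D105 r was 0.981, 0.979 and 0.964 and rho 0.984, 0.957 and 0.950. Each of these 12 values had a permutation p of 1e-05, the smallest that 100000 permutations give, and an adjusted p of 1.5e-05 over 9 relations. Without the 2 heifers farthest from the median, r was between 0.886 and 0.920 on D55 and between 0.935 and 0.965 on D105. Within the 17 heifers with a D105 library in the set BACKUP, D105 r was between 0.973 and 0.987, and in the 6 IVP-Normal heifers between 0.964 and 0.968. Both genes of a pair come from the same library.

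A heifer's own D55 level was less closely related to its D105 level. For S100A8, r was 0.518 (permutation p = 0.0103, adjusted 0.0132) and rho was 0.423 (p = 0.0437, adjusted 0.0561). For S100A12, r was 0.427 (p = 0.0434, adjusted 0.0488) and rho 0.363 (p = 0.0915, adjusted 0.0989), and for S100A9, r was 0.412 (p = 0.0504, adjusted 0.0504) and rho 0.354 (p = 0.0989, adjusted 0.0989). Without the 2 heifers farthest from the median on D55, r fell to 0.403 for S100A8, 0.287 for S100A12 and 0.261 for S100A9. Without heifers 604, 637 and 664 it was 0.209, 0.168 and 0.0502. These heifers held the lowest and highest D105 levels, so leaving them out narrows the range and by itself tends to lower r. Within the heifers of set BACKUP r was 0.591, 0.499 and 0.510, and within the 6 IVP-Normal heifers 0.336, 0.334 and 0.222.

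The proportions among the 3 genes were compared as ratios of reads within a library, which need no scaling between libraries. In AI heifers the ratio of S100A9 to S100A8 reads was 1.58 ± 0.210 (SD, n = 8) on D55 and 2.21 ± 0.386 on D105, higher in 7 of 8 heifers (exact sign-flip permutation test, p = 0.0156, adjusted 0.0703). In IVP-Normal heifers it was 1.80 ± 0.220 (n = 6) and 2.33 ± 0.334, higher in 6 of 6 (exact p = 0.0312, the smallest possible with 6 heifers, adjusted 0.0703). In IVP-LOS heifers it was 1.85 ± 0.292 (n = 9) and 1.84 ± 0.504, higher in 5 of 9 (exact p = 0.770).

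The ratio of S100A12 to S100A9 mirrored this, with 4.52 ± 0.553 on D55 and 3.16 ± 0.757 on D105 in AI, lower in 8 of 8 heifers (exact p = 0.00781, the smallest possible with 8 heifers, adjusted 0.0703). In IVP-Normal it was 4.55 ± 0.683 and 3.46 ± 0.492, lower in 6 of 6 (exact p = 0.0312, adjusted 0.0703), and in IVP-LOS 4.25 ± 0.720 and 4.99 ± 2.42, lower in 5 of 9 (exact p = 0.695). The ratio of S100A12 to S100A8 reads was 7.08 ± 0.819 and 6.77 ± 0.854 in AI, 8.12 ± 0.954 and 7.995 ± 1.16 in IVP-Normal, and 7.83 ± 1.74 and 8.26 ± 2.39 in IVP-LOS on D55 and D105 (exact p = 0.375, 0.719 and 0.566). None of the 9 ratio tests passed the adjusted threshold of 0.05. The IVP-LOS heifers spread widely on D105. In 637 the ratio of S100A12 to S100A9 was 1.99, the lowest of all 46 libraries, and in 604 and 664 it was 9.24 and 7.39, the highest values.

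**Figure D3:**
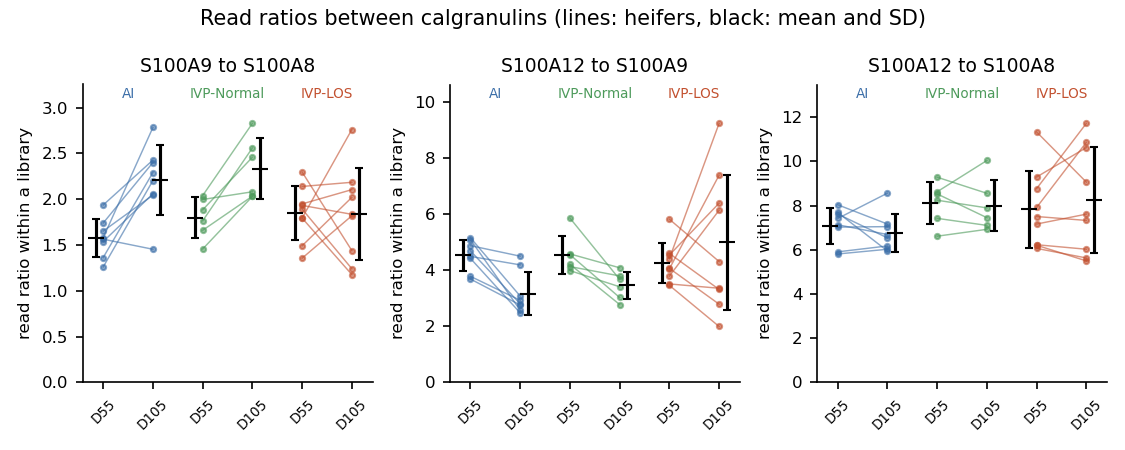
Ratio of reads between calgranulins within a library (vertical) on D55 and D105 for the 3 groups, with a line for each heifer and the mean and SD in black. The ratio of S100A9 to S100A8 was higher on D105 in 7 of 8 AI and 6 of 6 IVP-Normal heifers and in 5 of 9 IVP-LOS heifers, which fan out in both directions.

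Neutrophil markers were also higher on D105 in AI and IVP-Normal heifers. Of 8 listed markers, 6 were in the table and tested, and all 6 rose in AI heifers, beside 7.21% of all genes. CXCR1 and CXCR2, the receptors through which neutrophils sense CXCL8, rose by 5.26 ± 0.633 and 4.24 ± 0.501 (SE) on the log2 scale (adjusted p = 6.21e-05 and 5.90e-05). MMP9, a gelatinase of neutrophil granules, rose by 4.40 ± 0.499 (adjusted p = 4.90e-05). The list's median log2 difference was 2.78, beside -0.02 over all genes tested. In IVP-Normal heifers 5 of 6 were called higher beside 2.27% of all genes (median 2.33 beside -0.03), with 4.03 for CXCR1, 3.55 for CXCR2 and 3.40 for MMP9. In IVP-LOS heifers 0 of 6 were called beside 0.198% of all genes. Their median of 2.19 beside 0.01 compares group means that hold the library of heifer 637, and the median over IVP-LOS heifers of the ratio of the summed markers was 1.38. In leukocyte RNA of this kind, fewer cells of a type and less RNA per cell cannot be told apart.

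Summed over the 6 neutrophil markers, the level ranged from 429 to 779 CPM on D55 and from 927 to 2560 CPM on D105 in AI, where it was higher in 8 of 8 heifers. In IVP-Normal it ranged from 297 to 597 CPM and from 631 to 2692 CPM, higher in 6 of 6, and in IVP-LOS from 339.6 to 824 CPM and from 283 to 4347 CPM, higher in 7 of 9. The exceptions were 604 and 664, at 396 and 283 CPM on D105, and the highest library was again that of 637, with 4347 CPM against 1486 CPM in the next IVP-LOS heifer. The sums did not move alike in every heifer. In IVP-LOS heifers 512 and 557 and IVP-Normal heifer 560 the calgranulins were at 0.851, 0.683 and 0.954 times and the neutrophil markers at 1.38, 1.02 and 2.49 times their D55 level. In heifer 590 the summed calgranulins were 7.41 times and the neutrophil markers 2.85 times their D55 level, whereas in heifers 606 and 648 the neutrophil markers were at 4.17 and 5.06 times and the calgranulins at 1.155 and 1.66 times. The part of neutrophil content in the calgranulin levels was not tested.

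**Figure D4:**
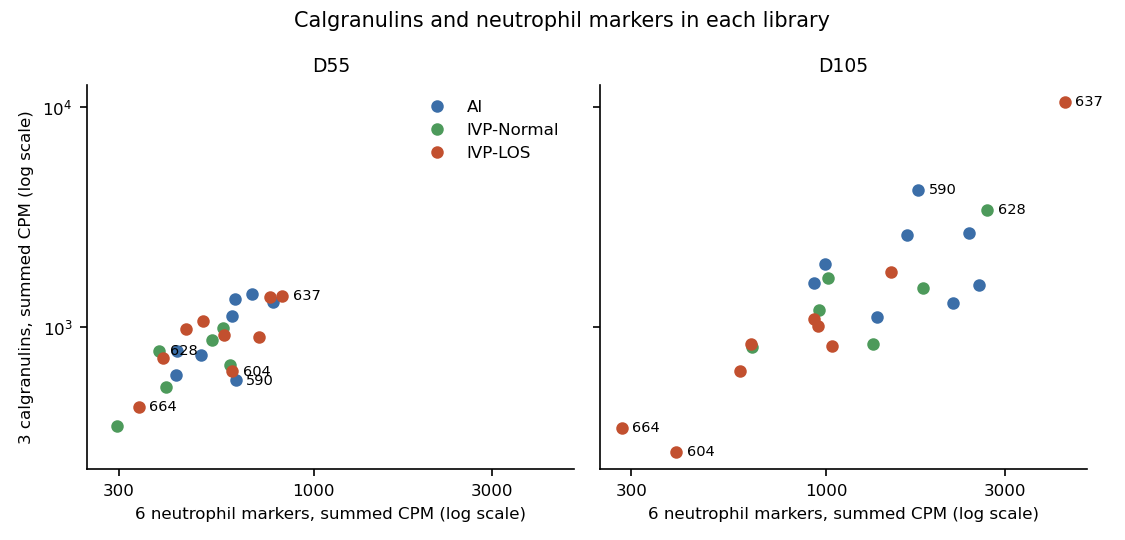
Summed CPM of the 3 calgranulins (vertical, log scale) against the summed CPM of 6 neutrophil markers (horizontal, log scale) in each library on D55 and D105, with points by group. On D105 heifers 604 and 664 lie at the low end of both sums and heifer 637 at 10576 and 4347 CPM.

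Of the monocyte markers, 2 of 7 rose in AI heifers beside 7.21% of all genes, namely CD68, a lysosomal protein of macrophages (1.14 ± 0.262, adjusted p = 0.00869), and CD14, the lipopolysaccharide co-receptor (1.01 ± 0.307, adjusted p = 0.0454), and in IVP-Normal and IVP-LOS heifers 0 of 7 were called beside 2.27% and 0.198% of all genes. Their summed level was higher on D105 in 6 of 8 AI, 3 of 6 IVP-Normal and 3 of 9 IVP-LOS heifers. It was 201 CPM in 664 and 367 CPM in 604 on D105, against 430.3 to 2433 CPM in the 20 heifers other than 604, 637 and 664, and 2204 CPM in 637. Granule genes that are transcribed mainly in immature neutrophils were low, with a sum between 1.94 and 80.3 CPM, the highest being 637 on D105. Of these, MPO, myeloperoxidase (2.52 ± 0.608, adjusted p = 0.0119), and ELANE, neutrophil elastase (2.00 ± 0.554, adjusted p = 0.0274), rose in AI heifers.

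Markers of other blood cells were mostly not called. In AI heifers 1 of 7 T cell, 0 of 6 B cell and 0 of 5 NK cell markers tested rose, beside 7.21% of all genes. Of the others, 1 of 4 eosinophil and basophil, 0 of 5 platelet and 0 of 3 red cell markers rose. The exceptions were CD28 (0.47) and GATA2 (4.23). In IVP-Normal heifers GZMB alone was called (2.11), an NK cell marker, beside 2.27% of all genes. No marker of these cells was called in IVP-LOS heifers, beside 0.198% of all genes. Counts this small do not set the lists apart from other genes. In IVP-Normal heifers GZMB was the 1 of 5 NK cell markers with a log2 difference above 0, and the list's median was -0.21. Of the 6 B cell markers, 0 lay above 0 in AI (median -0.30), 0 in IVP-Normal (-0.25) and 2 in IVP-LOS (-0.04). The D105 library of 604 had the highest sums of platelet markers (2569 CPM) and red cell markers (591 CPM) of all 46 libraries, against medians of 282 and 62.8 CPM in the 20 heifers other than 604, 637 and 664 on D105. B cell markers summed to 5063 CPM in 664 and 3863 CPM in 604 on D105, ranks 23 and 21 from the lowest of 23, and to 1738 CPM in 637, the second lowest. The part of this blood cell composition in the levels of the 3 genes was not tested.

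Genes of calgranulin reception and signalling rose in part. In AI heifers 6 of 11 tested rose and 0 fell, beside 7.21% of all genes called higher (median 0.24 beside -0.02 over all genes). EMB (embigin) rose by 2.07 ± 0.250 (adjusted p = 6.46e-05) and TLR4, the lipopolysaccharide receptor that calprotectin also engages, by 1.44 ± 0.257 (0.00130). MYD88, the adaptor of TLR4, rose by 0.75 ± 0.146 (0.00253) and LY96 (MD-2), its lipid-binding partner, by 0.77 ± 0.161 (0.00428). In IVP-Normal heifers EMB (2.101), TLR4 (1.497) and LY96 (0.63) rose, 3 of 11 beside 2.27%, and in IVP-LOS heifers 0 of 11 were called beside 0.198%. The receptors AGER and BSG were not called, with 0.09 ± 0.228 and -0.05 ± 0.0547 in AI.

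Of other genes with which calgranulins act, 1 of 6 of the NADPH oxidase, 3 of 7 metal genes and 2 of 8 myeloid transcription factors rose in AI heifers, beside 7.21% of all genes. Of the NADPH oxidase, whose phagocyte subunits calprotectin helps to assemble, the organizer NCF1 alone rose, by 1.398 ± 0.280 in AI and 1.26 ± 0.270 in IVP-Normal heifers (adjusted p = 0.00324 and 0.0228), and 5 of 6 members were not called in either group. Of genes that bind or carry metals, LTF, the iron-binding lactoferrin of neutrophil granules, rose by 3.06 ± 0.380 in AI and 2.09 ± 0.417 in IVP-Normal heifers. SLC39A8, a zinc and manganese importer, rose by 1.35 and 1.70. SLC11A1, the phagosomal metal transporter, rose in AI heifers (0.98 ± 0.286, adjusted p = 0.0358) and was not called in IVP-Normal heifers (1.06 ± 0.375, adjusted p = 0.212). In IVP-Normal heifers 2 of 7 metal genes were called beside 2.27% of all genes, and in IVP-LOS heifers 0 of 6 tested beside 0.198%. Of 8 myeloid transcription factors, CEBPE, which drives late granulocyte maturation, and STAT3 rose in AI heifers (1.43 ± 0.393 and 0.43 ± 0.0961). CEBPE was the single listed gene called in IVP-LOS heifers (2.30 ± 0.467, adjusted p = 0.0492).

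The rest of the S100 family gave no call. Of 16 other S100 genes, 14 were in the table and 9 had enough reads to be tested. In the 3 day comparisons 0 of 9 were called, with medians of 0.03 in AI, 0.01 in IVP-Normal and -0.06 in IVP-LOS. Of all genes, 7.21% in AI, 2.27% in IVP-Normal and 0.198% in IVP-LOS were called higher. At such shares a count of 0 of 9 does not set these genes apart from others. S100A11 differed by 0.29 ± 0.150 in AI and 0.29 ± 0.195 in IVP-Normal heifers, and S100A4 by 0.03 ± 0.158 and -0.15 ± 0.229. S100A14, which the study names from these samples, differed by -0.60 ± 0.259 in AI heifers (adjusted p = 0.172).

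**Figure D5:**
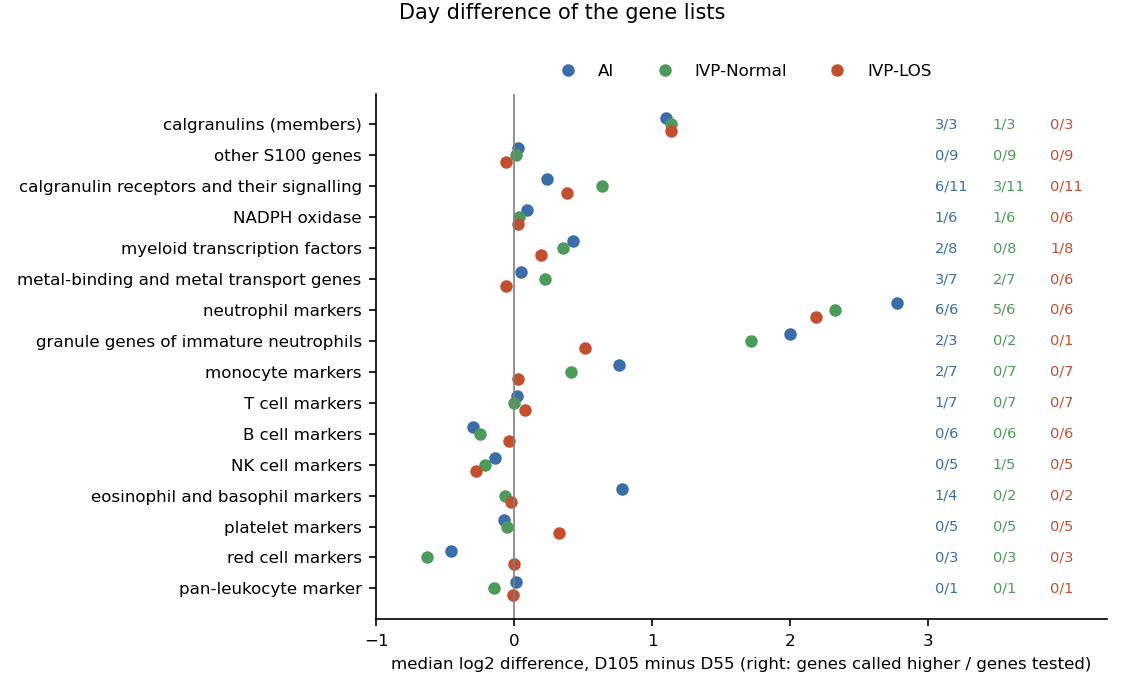
Median log2 difference of D105 minus D55 (horizontal) for each gene list, by group, with the number of genes called higher of those tested at the right. The 3 calgranulins and the 6 neutrophil markers have the medians farthest above 0 among lists with 3 or more genes tested in each group.

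The genes most like the calgranulins in pattern were sought by the lower of the D55 and D105 Pearson correlations of log2 CPM with the mean of the 3 genes over 23 heifers, a description with no test in which all values of a day share their libraries. Of 16484 genes ranked, 53 had a likeness above 0.8. The first 8 were TYROBP, the adaptor DAP12 of myeloid receptors (0.941), NFAM1 (0.922), PRODH, proline dehydrogenase (0.918), TNFRSF1A, a TNF receptor (0.909), SULT1A1, a sulfotransferase (0.901), UBTD1 (0.893), LOC104971390 (0.886) and IL1R1, the IL-1 receptor (0.883). In AI heifers 7 of these 8 were called higher on D105, beside 7.21% of all genes, SULT1A1 (0.55 ± 0.223, adjusted p = 0.143) being the exception, and in IVP-Normal heifers NFAM1 (1.58), PRODH (1.36) and IL1R1 (1.34) were, beside 2.27%. In IVP-LOS heifers 0 of 8 were called (adjusted p between 0.432 and 0.967), beside 0.198%. The 8 genes were picked by their likeness in these same libraries. Their counts of calls are therefore a description and cannot be weighed against the shares of all genes. Among listed genes the closest were CEBPD, a myeloid transcription factor (0.872, rank 12), and S100A11 (0.831, rank 32). The neutrophil markers ranked lower, and 6 of 6 had a lower correlation on D55 than on D105. MMP9 had 0.205 on D55 and 0.913 on D105, and CXCR1 had 0.364 and 0.765.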

How the data were processed

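Maternal leukocyte RNA was sequenced in 23 heifers on D55 and D105. Per the labels and the study's methods, buffy coats were freed of red cells, RNA was extracted with TRIzol and sequenced on a DNBSEQ platform. Reads were trimmed, aligned with HISAT2 2.1.0 to ARS-UCD1.2 and counted with HTSeq in union mode, which leaves out reads that overlap more than 1 gene. The strand setting is not given in the sources used here. The deposited table holds whole-number read counts per RefSeq gene, as the authors made them, with no normalization. Its 5 HTSeq summary lines, which name no gene, were left out. The line for reads that lie on no gene alone held 19.6% to 32.4% of all counted reads per library. A second count table on Ensembl genes was not used here, since its identifiers could not be paired with symbols.

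Counts were scaled by TMM, and genes were kept with a minimum count of 10 by filterByExpr. edgeR 4.0.16 (R 4.3.3) tested each gene by the quasi-likelihood F-test, with Benjamini-Hochberg adjustment over all genes tested and a threshold of 0.05, in 3 day comparisons, 6 treatment comparisons (libraries of the compared groups alone) and 3 differences of day change (all 46 libraries). Single-gene values were tested over heifers by exact sign-flip and exact permutation tests, two-sided, and correlations by 100000 permutations of log2(CPM + 1), with Python 3.11.15, numpy 2.4.6 and scipy 1.17.1; plots used matplotlib 3.10.9. Alternatives were DESeq2 1.42.0, edgeR's likelihood ratio test, another scaling, no filter, the heifer as a replicate block, 1 fit over all libraries and leaving out heifers. The exact tests and the fits without heifers 604, 637 and 664 together, or with the block and without 637, were chosen after seeing the data.

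Days pair within a heifer by design. The deviations of a heifer's 2 libraries from their group means correlated across genes with an r of 0.530 on average over 23 heifers (lowest 0.280), against -0.0234 for libraries of different heifers. On counts simulated from these libraries with 200 genes changed by a log2 of 1, the test recovered 88.5% in the AI day comparison of 15248 genes, 74.0% in IVP-Normal, 84.0% in IVP-LOS, 82.0% for IVP-LOS against AI on D105 and 75.5% for the difference of day change. The changed genes were drawn from well-read genes, and each library was simulated independently, without the correlation within a heifer. These shares are averages over such genes and do not give the power for the calgranulins, which varied widely among IVP-LOS heifers. Each heifer is 1 animal, and p-values of the same-day comparisons measure the spread between animals. Fits of the day difference and of the difference of day change without the block treat a heifer's 2 libraries as independent and ignore the pairing. With the block, and in the exact tests over heifers, p-values measure the spread of changes within heifers.

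The calgranulins and all gene lists were chosen with earlier results of these data known. Besides the members, the rule named the listed genes that passed the test in a day comparison, at most the 4 with the smallest adjusted p in each list, and the 8 genes most like the members. AGER, BSG, S100A4, S100A11 and S100A14, and the likeness of CEBPD, S100A11, MMP9 and CXCR1, were singled out after their values were seen. 1 listed gene that the rule names is not reported here.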

Additional observations from a re-analysis of the deposited data

Results flagged for a closer look

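Of 36 groups of levels and read ratios, 9 held a heifer whose gap to its nearest neighbour was above Dixon's 95% critical value for the group. Chance marks about 1 in 20 groups only where groups are independent and normally distributed. The 3 genes moved together and the ratios share their reads, so the 9 flags cannot be set against that rate. Heifer 637 stood apart among IVP-LOS heifers on D105 in all 3 genes, with 1143 CPM of S100A8, 3155 CPM of S100A9 and 6279 CPM of S100A12. Heifer 628 stood apart among IVP-Normal heifers on D105 in S100A8 (326 CPM) and S100A12 (2427 CPM), and heifer 590 among AI heifers on D105 in S100A9 (1084 CPM). The ratio of S100A12 to S100A9 reads on D55 was set apart in heifer 628 (5.86) and in heifer 602 of the IVP-LOS group (5.82), and the ratio of S100A12 to S100A8 reads on D105 in heifer 647 of the AI group (8.56). Neutrophil marker sums of heifers 637, 628 and 590 on D105 were 4347, 2692 and 1760 CPM, and the part of neutrophil content in their calgranulin levels was not tested.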

How the results depend on the processing

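The count of calgranulins called in AI heifers went from 3 to 0 with all 46 libraries in 1 fit and ranged from 1 to 3 when 1 heifer was left out. In IVP-Normal heifers it went from 1 to 2 with the likelihood ratio test, 3 with DESeq2, 3 with the heifer as a replicate block and 0 with all 46 libraries, and ranged from 0 to 1 with 1 heifer left out. The number of all genes called went from 1517 to 2603 in AI with the block. In IVP-Normal it went from 374 to 838 with the block, 613 with the likelihood ratio test, 748 with DESeq2, 657 with all libraries in 1 fit, 195 without 628, and lower still without 560, 633 or 688. In IVP-LOS it went from 38 to 162, 227, 336 and 558 under the same 4 settings, to 24 without 637, 12 without 604 and 664 and 1 without all 3. The D55 to D105 correlation of S100A8 was 0.209 and of S100A12 0.168 without heifers 604, 637 and 664. On CPM without a log it was 0.483 for S100A9, now past the threshold, and 0.335 for S100A12, no longer past it.

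Directions changed in comparisons with IVP-LOS heifers, none of which was called. Values are log2 differences of S100A8, S100A9 and S100A12 in this order unless a gene is named. The IVP-LOS day difference was -0.16, -0.10 and -0.12 with DESeq2, -0.032 (S100A8) and -0.051 (S100A12) without heifer 637, which made the ranges with 1 heifer left out -0.032 to 1.28 and -0.051 to 1.01, and -0.22, -0.33 and -0.15 with the block and without 637. IVP-LOS against AI on D55 was 0.037, 0.16 and 0.080 without 604 and 664, 0.031 (S100A9) and 0.014 (S100A12) without 604, 637 and 664, and 0.0016 (S100A9) with upper-quartile scaling. On D105 it was 0.19, 0.35 and 0.10 without 604 and 664 and 0.0054 (S100A9) with all libraries in 1 fit. IVP-LOS against IVP-Normal on D105 was -0.77, -1.01 and -0.81 with DESeq2, -0.81, -1.09 and -0.86 without 637, and -0.48, -0.73 and -0.58 without 604, 637 and 664.

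The difference of day change between IVP-LOS and AI was, for S100A8 and S100A9, -0.021 and -0.043 with upper-quartile scaling, -0.93 and -1.47 with the block, -1.14 and -1.54 without 637, -1.03 and -1.37 without 604, 637 and 664, -1.22 and -1.80 with the block and without 637, -1.003 and -1.42 with the block and without all 3, and -0.90 and -1.42 in the exact test; for S100A12 it was 0.027 without 604 and 664. Between IVP-LOS and IVP-Normal it was 0.10 for S100A8 without 604 and 664, and for S100A9 -1.38 with the block, -1.46 without 637, -1.28 without 604, 637 and 664, -1.72 with the block and without 637, -1.32 with the block and without all 3, and -1.30 in the exact test. For S100A8 in IVP-Normal minus AI the exact test gave -0.014. The cause of these changes was not tested. For the 3 calgranulins, the block changed no call other than those of S100A8 and S100A12 in IVP-Normal heifers; listed genes were not refitted with it.

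The planned repeat on the Ensembl table was not run. Group sizes of 6 to 9 heifers, the library sets, and the shallower D105 libraries of 604 and 664 limit these comparisons; the calgranulins had at least 363 reads in every library.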
